A study of Mus musculus with 6 samples.

Results

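The 41 genes described here encode the digestive hydrolases of the lysosome, their activator proteins, the cholesterol carriers NPC1 and NPC2, lysosomal membrane proteins, subunits of the vacuolar proton pump and the transcription factor TFEB. They were chosen by the function of their products, with earlier results of these data known. Their rows were found by gene symbol in each table of expression values. Of the 41 genes, 39 had a row among the 35237 genes of the FPKM table (fragments per kilobase of transcript, scaled to the mapped fragments of the library, a level per length). In the table from ALEXA-Seq, a second pipeline run on the same reads, 40 had a row among 36536 genes. Galns had values in the ALEXA-Seq table only, and Tfeb was not analysed here.

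RNA-Seq had been run on 3 libraries of bone marrow monocytes (BMDM) and 3 libraries of brainstem microglia (BSM), to find transcripts that tell monocytes entering the brain from the microglia that reside there. All cells came from C57BL/6 mice aged 6 weeks, with male mice for replicate 1 and female mice for replicates 2 and 3 of both cell types, and each library held cells pooled from several mice. BMDM were sorted as Ly6G- cells carrying CD11b, CD115 and a high level of CD45, and BSM as Ly6G- cells with CD11b, low CD45 and low CD115. The RNA was amplified to cDNA before sequencing, and BSM replicate 1 had the lowest RNA concentration and by far the lowest RNA integrity of the 6 samples.

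Lysosomes are acidic compartments in which glycosidases, sulfatases, lipases and peptidases break down material taken up by phagocytosis or delivered by autophagy. The vacuolar proton pump keeps them acidic: its cytosolic V1 sector hydrolyses ATP, and its membrane sector V0 carries protons across the membrane. Many of these genes hold an E-box element in the promoter that TFEB and its relatives bind, and inherited loss of single lysosomal enzymes or transporters causes storage diseases that often affect the brain. Monocytes and microglia are both phagocytes, and microglia clear debris and synaptic material in the brain.

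The libraries carried the markers of their labels. The summed FPKM of 6 microglial markers, among them P2ry12 and Cx3cr1, was 360 to 423 in BSM and 6.97 to 8.19 in BMDM. The summed FPKM of 6 monocyte markers, among them Ccr2, was 448 to 488 in BMDM and 0.741 to 1.55 in BSM, where Ly6c2 was listed at 0. Of the lists for other cells, granulocyte markers summed to 46.0, 328.5 and 83.2 in BMDM replicates 1, 2 and 3 and to at most 0.0714 in BSM, where Elane and Prtn3 were listed at 0. Astrocyte markers summed to 5.32 to 9.54 in BSM, nearly all of it Slc1a3, and to at most 0.397 in BMDM. Oligodendrocyte markers reached 12.8 and erythroid markers 39.1 in BMDM, against at most 2.13 and 0.158 in BSM, and neuronal markers stayed at or under 0.249. Of the oligodendrocyte markers, only Mbp and Cnp reached an FPKM of 3 in any library. Lymphocyte, endothelial and perivascular macrophage markers reached at most 8.86, 3.87 and 4.24 in any library. BSM replicate 1 stood apart, with 7.42% of the compared genes at 0 against 0.801% to 1.81% elsewhere. The paper reports that the number of mapped reads was similar between samples. No read counts per gene are in these tables, which leaves the reads behind a single value unknown.

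The sum of all FPKM was 163199 to 194184 in BMDM and 68288 to 75021 in BSM, so a typical gene was listed lower in BSM. The comparison used limma on log2(FPKM + 1) over the 6364 genes that reached an FPKM of 3 in at least 1 library, and positive log2 fold changes stand for BSM. On this scale the median difference over these genes was -0.81. After quantile normalization, which gives every library the same distribution of values, it was -0.02. Each gene is therefore given on the listed scale, and the quantile normalized value is added where it changes the direction or the call. A call stands for a Benjamini-Hochberg adjusted p under 0.05, and intervals are 95% confidence intervals. In these sorted bulk samples, fewer cells of a type and less RNA per cell cannot be told apart.

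The lysosomal genes differed between the cell types in both directions. Of the 39 genes with FPKM values, 30 reached the minimum of 3, and 4 of these 30 (13.3%) were called higher in BSM, against 9.22% of all genes tested. Another 10 (33.3%) were called higher in BMDM, against 45.3% of all genes tested, and 16 were not called. Legumain (Lgmn), Arsb, Tpp1 and Npc1 were the genes called higher in BSM. Atp6v1a, Atp6v1b2, Psap, Gm2a, Atp6v0d1, Lamp1, Npc2, Atp6v1h, Manba and Ids were those called higher in BMDM. The median log2 fold change of the 30 genes was -0.26. After quantile normalization, 11 of the 30 (36.7%) were called higher in BSM against 19.3% of all genes, 6 (20.0%) were called higher in BMDM against 21.7%, and the median was 0.55. The summed FPKM of the 39 genes was 781 to 1026 in BMDM and 579 to 650 in BSM, while their share of all FPKM was 0.479% to 0.528% in BMDM and 0.848% to 0.936% in BSM, so that the sum and the share ran in opposite directions. The libraries of the cell types did not overlap for 4 genes higher in BSM and 13 higher in BMDM, against 11.6% and 55.2% of all genes tested. With upper quartile scaling, 12 and 5 genes were called higher in BSM and in BMDM, against 16.5% and 21.7% of all genes, and with all libraries scaled to the same sum 17 and 4, against 24.9% and 15.2%. Without BSM replicate 1, 5 genes were called higher in BSM and 11 higher in BMDM, where 11.6% and 50.2% of all genes were called.

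**Figure D1:**
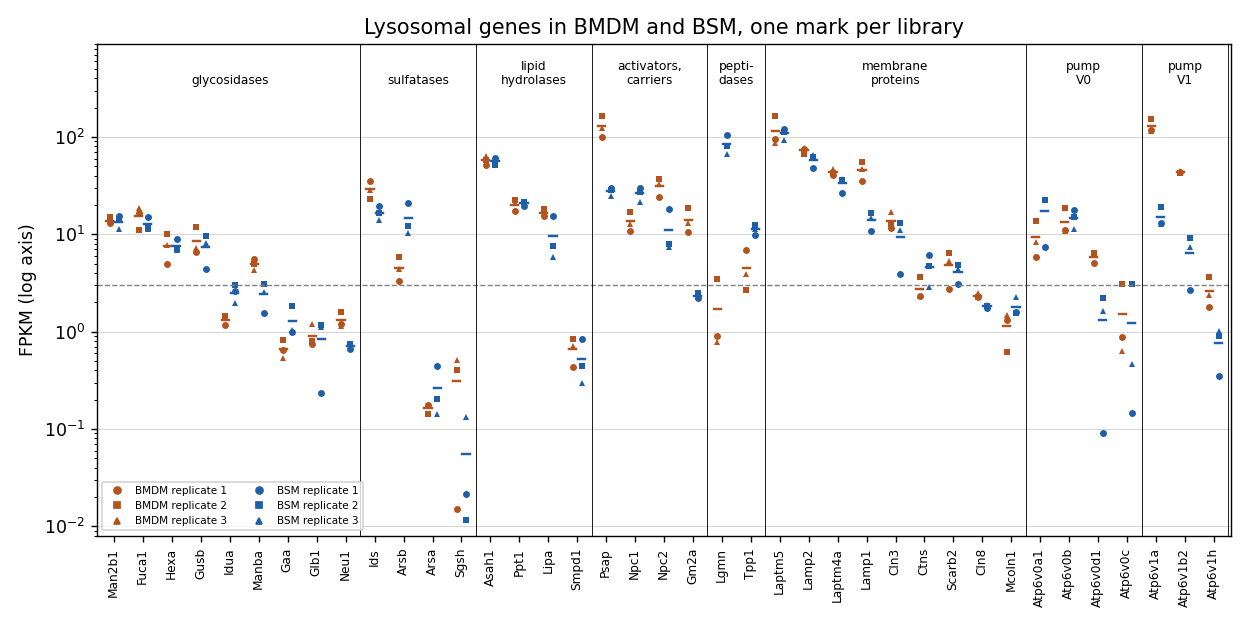
FPKM of the 39 lysosomal genes on a log axis, with 1 mark per library, a bar for the mean of each cell type and a dashed line at the minimum of 3 FPKM. Lgmn lies at 67.4 to 105 in BSM and at 0.777 to 3.48 in BMDM, while Atp6v1a lies at 114 to 152 in BMDM and at 12.8 to 19.3 in BSM.

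The peptidases were both higher in BSM. Lgmn, an asparaginyl endopeptidase that also processes other lysosomal proteases, lies at chr12:103632294-103678023 (mm9). Its FPKM was 105, 81.6 and 67.4 in BSM replicates 1, 2 and 3 and 0.892, 3.48 and 0.777 in BMDM replicates 1, 2 and 3. The lowest BSM library exceeded the highest BMDM library, and BMDM replicate 2 stood above the other BMDM libraries. The means were 84.8 ± 19.2 and 1.72 ± 1.53 (SD, n = 3 each), a ratio of 49.4, and the log2 fold change was 5.09 (standard error, SE, 0.39, adjusted p = 4.15e-05 by limma). It stayed between 4.86 and 5.52 whichever library was left out. Lgmn ranked 30 of 39 by mean FPKM in BMDM and 2 of 39 in BSM.

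Tpp1 encodes tripeptidyl peptidase 1, whose loss causes a childhood form of neuronal ceroid lipofuscinosis. Its FPKM was 9.88, 12.6 and 11.3 in BSM and 6.94, 2.69 and 3.93 in BMDM. The BSM libraries all lay above the BMDM libraries, with BMDM replicate 1 the closest. The log2 fold change was 1.22 (SE 0.32, adjusted p = 0.0134 by limma), and without BMDM replicate 3 the adjusted p was 0.057.

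Among the sulfatases, Arsb and Ids were called in opposite directions. Arsb encodes arylsulfatase B, which removes sulfate from dermatan sulfate and chondroitin sulfate. Its FPKM was 21.2, 12.3 and 10.4 in BSM and 3.28, 5.81 and 4.45 in BMDM. All BSM libraries lay above all BMDM libraries, and BSM replicate 1 was the highest. On the log2 scale the difference was 1.47 (SE 0.32, adjusted p = 0.0067 by limma). Of the longest Arsb transcript, 59.9% matched other annotated genes (Gm26527 and Gm47210) at 95% identity or more, so its reads could have been split.

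Ids encodes iduronate-2-sulfatase, which acts on heparan sulfate and dermatan sulfate. Its FPKM was 35.2, 23.2 and 28.6 in BMDM and 19.4, 16.7 and 14.1 in BSM, with no overlap. Its log2 fold change was -0.75 (SE 0.25, adjusted p = 0.0344 by limma), and it turned to 0.017 and was not called after quantile normalization. The call was also lost without BMDM replicate 1 or 3 or BSM replicate 2 or 3 (limma adjusted p = 0.084 to 0.114). Galns encodes the sulfatase that acts on keratan sulfate and chondroitin 6-sulfate. Its ALEXA-Seq value was 35.4, 73.9 and 49.1 in BMDM and 9.61, 7.06 and 5.17 in BSM, and it was called higher in BMDM (log2 fold change -2.67, SE 0.44, adjusted p = 0.00308 by limma). Arsa, the sulfatase of sulfatide, and Sgsh, a sulfatase of heparan sulfate, stayed at or under 0.513 FPKM in every library and were not tested.

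The sphingolipid activators were both lower in BSM. Psap is the precursor of the saposins, small proteins that present sphingolipids to their hydrolases. Its FPKM was 99.3, 165 and 123 in BMDM and 30.2, 28.3 and 24.6 in BSM, so every BMDM library lay above every BSM library. The log2 fold change was -2.15 (SE 0.25, adjusted p = 0.000343 by limma). Psap had the highest mean of the 39 genes in BMDM and ranked 6 in BSM. Gm2a encodes the GM2 activator, which presents ganglioside GM2 for breakdown. Its FPKM was 10.6, 18.6 and 13.02 in BMDM and 2.20, 2.48 and 2.27 in BSM. The BMDM libraries lay apart from the BSM libraries, and the log2 fold change was -2.15 (SE 0.26, adjusted p = 0.000423 by limma). Both calls held after quantile normalization, at -1.41 for Psap and -1.43 for Gm2a.

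NPC1, a membrane protein, and NPC2, a soluble protein, pass cholesterol out of the lysosome in sequence, and their genes were called in opposite directions. Npc1 had an FPKM of 30.3, 27.3 and 21.7 in BSM and 10.8, 17.1 and 12.9 in BMDM. Npc2 had an FPKM of 24.4, 36.8 and 33.0 in BMDM and 18.1, 7.89 and 7.35 in BSM. Neither gene's groups overlapped, and BSM replicate 1 was the highest BSM library for both. On the log2 scale the difference was 0.92 for Npc1 (SE 0.26, adjusted p = 0.0182 by limma) and -1.51 for Npc2 (SE 0.36, adjusted p = 0.00969 by limma). After quantile normalization Npc1 was still called, at 1.70, and Npc2 was not, at -0.75 (95% interval -1.52 to 0.03). Npc1 lost its call without BMDM replicate 1, BMDM replicate 3 or BSM replicate 2 (limma adjusted p = 0.0558 to 0.0669).

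The glycosidases and lipid hydrolases were mostly not called on the listed scale. Asah1, acid ceramidase, had an FPKM of 51.7, 58.1 and 63.4 in BMDM and 60.3, 51.9 and 56.8 in BSM. Man2b1, a lysosomal alpha-mannosidase, had 12.9, 14.9 and 13.7 in BMDM and 15.2, 13.9 and 11.2 in BSM. Ppt1, a thioesterase that removes palmitate from proteins, had 17.3, 22.4 and 21.0 in BMDM and 19.6, 21.7 and 21.4 in BSM. The libraries of the cell types overlapped for all 3 genes. Their log2 fold changes were -0.03 (95% interval -0.51 to 0.45), -0.05 (-0.56 to 0.47) and 0.05 (-0.45 to 0.55). After quantile normalization all 3 were called higher in BSM, at 0.70, 0.71 and 0.81, so that their direction relative to other genes differs from that of their listed values for Asah1 and Man2b1.

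Hexa encodes the alpha chain of beta-hexosaminidase, which is lost in Tay-Sachs disease. Its FPKM was 4.95, 10.1 and 7.74 in BMDM and 8.89, 7.03 and 6.88 in BSM, and the groups overlapped. Its log2 fold change was 0.04 (95% interval -0.63 to 0.71), and it was called at 0.77 after quantile normalization. Fuca1, an alpha-fucosidase, had 16.7, 11.0 and 18.6 in BMDM and 15.1, 11.7 and 11.4 in BSM. Gusb, beta-glucuronidase, had 6.61, 11.99 and 7.19 in BMDM and 4.45, 9.53 and 8.23 in BSM. Neither was called on either scale, with listed log2 fold changes of -0.24 (95% interval -0.86 to 0.38) and -0.20 (-0.99 to 0.58) that turned to 0.52 and 0.58 after quantile normalization.

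Manba, lysosomal beta-mannosidase, was the glycosidase called higher in BMDM. Its FPKM was 5.63, 4.97 and 4.30 in BMDM and 1.56, 3.11 and 2.57 in BSM, without overlap. The log2 fold change was -0.83 (SE 0.26, adjusted p = 0.0301 by limma), close to the median of all genes, and after quantile normalization it was -0.06 and not called. The call was also lost without any of the BMDM replicates or without BSM replicate 3 (limma adjusted p = 0.0663 to 0.0934). Lipa, lysosomal acid lipase, had an FPKM of 15.5, 18.0 and 16.6 in BMDM and 15.3, 7.58 and 5.87 in BSM. On the log2 scale the difference was -0.84 (95% interval -1.63 to -0.06, limma adjusted p = 0.0665), and BSM replicate 1 lay next to the BMDM libraries. Without BSM replicate 1 it was -1.20 and was called (limma adjusted p = 0.00175).

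Idua, alpha-L-iduronidase, missed the minimum with a highest FPKM of 2.998. It had 2.61, 2.998 and 1.96 in BSM and 1.16, 1.45 and 1.37 in BMDM, with no overlap. ALEXA-Seq called it higher in BSM (log2 fold change 0.96, SE 0.30, adjusted p = 0.0348 by limma), a call that was lost when any library except BSM replicate 1 was left out. The other hydrolases under the minimum were Gaa (acid alpha-glucosidase), Glb1 (beta-galactosidase), Neu1 (a sialidase) and Smpd1 (acid sphingomyelinase), which ranged from 0.231 FPKM to 1.83 FPKM. Gaa was listed higher in all BSM libraries (0.981 to 1.83) than in the BMDM libraries (0.531 to 0.813), and Neu1 lower (0.665 to 0.750 against 1.14 to 1.58). For each of these and for every other single gene, the exact two-sided permutation test of 3 against 3 libraries cannot go below p = 0.1.

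Of the 7 lysosomal membrane protein genes tested, Lamp1 was called, higher in BMDM, and the other 6 were not. Laptm5, a lysosomal protein of blood cells, had an FPKM of 94.9, 163 and 86.2 in BMDM and 121, 113 and 94.1 in BSM, the highest mean of the 39 genes in BSM and the third in BMDM. Its groups overlapped, with a log2 fold change of -0.02 (95% interval -0.68 to 0.65) that was 0.64 and not called after quantile normalization. Lamp1 and Lamp2 encode the main glycoproteins that line the lysosomal membrane, and LAMP2 also takes part in chaperone-mediated autophagy. Lamp1 had 35.6, 55.2 and 47.5 in BMDM and 10.9, 16.6 and 14.6 in BSM, and Lamp2 had 76.2, 67.7 and 77.9 in BMDM and 47.7, 62.0 and 64.8 in BSM. The groups did not overlap for either gene, but the gap was wide for Lamp1 and narrow for Lamp2. Lamp1 was called (log2 fold change -1.64, SE 0.27, adjusted p = 0.00164 by limma), also after quantile normalization at -0.87. Lamp2 was not called, at -0.35 (95% interval -0.86 to 0.16), and turned to 0.41 after quantile normalization.

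Laptm4a, a relative of Laptm5, ranged from 40.3 to 47.1 FPKM in BMDM and from 26.4 to 37.4 in BSM and was not called (-0.39, 95% interval -0.92 to 0.15), with 0.39 after quantile normalization. Ctns encodes cystinosin, which exports cystine from the lysosome. It had an FPKM of 6.17, 4.68 and 2.87 in BSM and 2.32, 3.65 and 2.34 in BMDM. BSM replicate 3 lay within the BMDM range, and the log2 fold change of 0.54 (95% interval -0.17 to 1.24) was not called, whereas 1.32 was called after quantile normalization. Cln3, a membrane protein lost in juvenile neuronal ceroid lipofuscinosis, had 11.6, 12.7 and 17.0 in BMDM and 3.94, 13.1 and 11.0 in BSM, where replicate 1 was the low library. Its log2 fold change was -0.64 (95% interval -1.58 to 0.31), turning to 0.15 after quantile normalization, and 13.8% of its longest transcript matched Apobr. Scarb2, which carries glucocerebrosidase to the lysosome, ranged from 2.77 to 6.36 in BMDM and from 3.07 to 4.85 in BSM and was not called (-0.15, 95% interval -0.88 to 0.58, with 0.60 after quantile normalization). Mcoln1, the calcium channel mucolipin 1, and Cln8, a membrane protein that helps lysosomal enzymes leave the endoplasmic reticulum, did not reach the minimum. Mcoln1 was listed at 1.57 to 2.29 in BSM and 0.619 to 1.47 in BMDM, and Cln8 at 1.73 to 1.88 in BSM and 2.25 to 2.48 in BMDM, without overlap in either case.

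**Figure D2:**
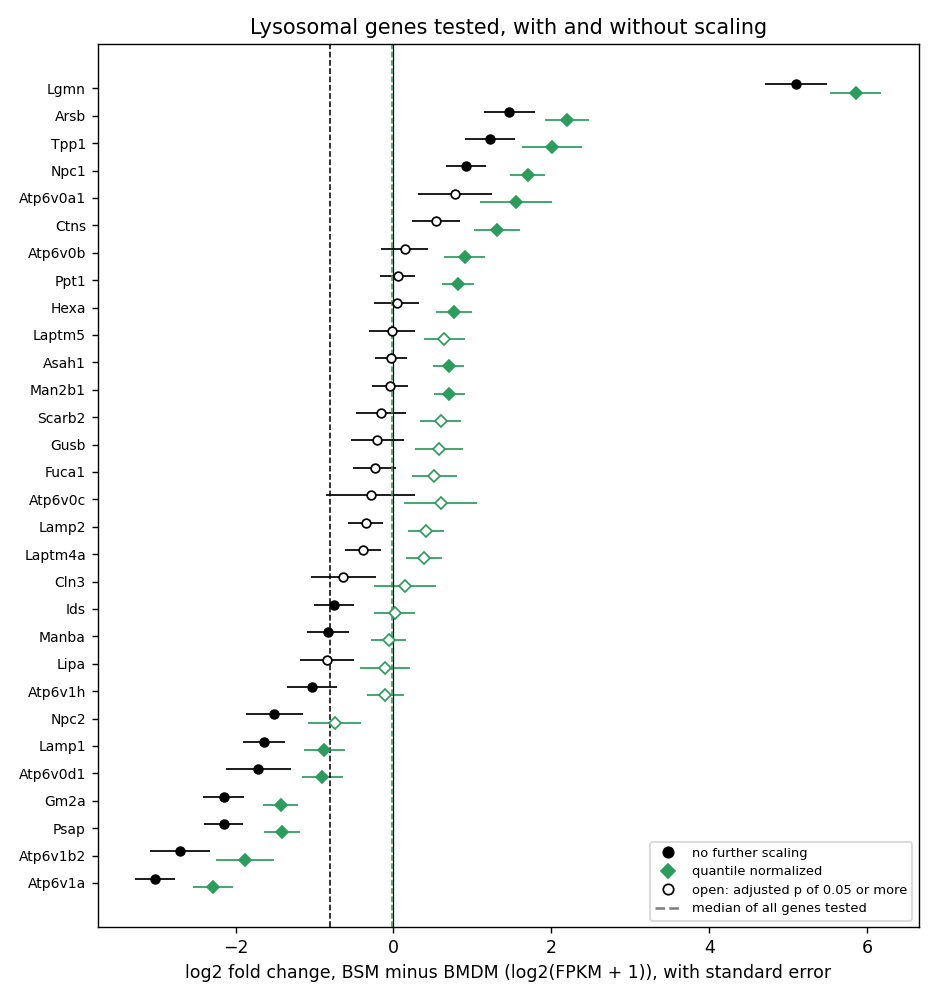
Log2 fold change with its standard error for the 30 lysosomal genes tested, on the listed scale (black circles) and after quantile normalization (green diamonds), where filled marks are called and dashed lines show the medians of all genes. The 4 genes at the top and the 6 at the bottom are called on both scales, and 11 genes cross from negative to positive after quantile normalization, as the median of all genes moves from -0.81 to -0.02.

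All 3 V1 subunits of the proton pump among the 41 genes were called higher in BMDM, as were 45.3% of all genes tested. Atp6v1a encodes the catalytic A subunit, and Atp6v1b2 the B subunit that alternates with it in the ATP-hydrolysing ring. Atp6v1a had an FPKM of 119, 152 and 114 in BMDM and 13.2, 19.3 and 12.8 in BSM. Atp6v1b2 had 43.7, 42.8 and 44.2 in BMDM and 2.68, 9.24 and 7.43 in BSM. For both genes every BMDM library was far above every BSM library, and for Atp6v1b2 the lowest was BSM replicate 1. The means differed by a ratio of 8.50 for Atp6v1a and 6.75 for Atp6v1b2. The log2 fold changes were -3.02 (SE 0.25, adjusted p = 6.1e-05 by limma) and -2.71 (SE 0.38, adjusted p = 0.00086 by limma), and both held after quantile normalization at -2.28 and -1.88. Atp6v1h, the regulatory H subunit, had 1.80, 3.67 and 2.39 in BMDM and 0.349, 0.910 and 1.01 in BSM. It was called at -1.03 (SE 0.32, adjusted p = 0.0264 by limma), but not after quantile normalization at -0.10. Its call was also lost without BMDM replicate 2, BMDM replicate 3 or BSM replicate 2 (limma adjusted p = 0.0513 to 0.0702).

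Of the 4 V0 subunits, Atp6v0d1 was called higher in BMDM as well, and the other 3 were not called on the listed scale. The sectors were not tested against each other. Atp6v0a1, a form of the large membrane subunit, had an FPKM of 7.49, 22.6 and 22.4 in BSM and 5.82, 13.9 and 8.24 in BMDM. BSM replicate 1 lay among the BMDM libraries, and the log2 fold change of 0.77 (95% interval -0.31 to 1.86) was not called. Without BSM replicate 1 it was 1.26 and was called (limma adjusted p = 0.0158), and it was also called after quantile normalization of all libraries, at 1.55. Atp6v0b and Atp6v0c encode subunits of the proton-carrying ring. Atp6v0b had 17.8, 15.2 and 11.4 in BSM and 11.1, 18.7 and 10.8 in BMDM, which overlapped (log2 fold change 0.14, 95% interval -0.54 to 0.82, and called at 0.90 after quantile normalization). Atp6v0c had 0.146, 3.10 and 0.468 in BSM and 0.875, 3.09 and 0.639 in BMDM. Replicate 2 was the high library in both cell types, and the log2 fold change of -0.29 (95% interval -1.60 to 1.02) turned to 0.60 after quantile normalization, without a call. For Atp6v0c, 39.5% of the longest transcript matched the pseudogenes Atp6v0c-ps1 and Atp6v0c-ps2, which makes its level uncertain. Atp6v0d1, the stalk subunit that joins V0 to V1, had 5.02, 6.50 and 6.17 in BMDM and 0.0907, 2.22 and 1.63 in BSM, with a log2 fold change of -1.71 (SE 0.41, adjusted p = 0.00973 by limma) and -0.90 after quantile normalization.

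Summed over the listed subunits, V1 came to 161 to 199 FPKM in BMDM and 16.2 to 29.4 in BSM, and V0 to 22.8 to 42.1 in BMDM and 25.6 to 43.1 in BSM. The V1 sums did not overlap and the V0 sums did. Most of the V1 sum was Atp6v1a, with a mean of 128 of 175 in BMDM and 15.1 of 22.3 in BSM. Of the 18 other pump genes searched for, 10 were tested. Of these, 1 (10.0%) was called higher in BSM and 4 (40.0%) higher in BMDM, close to the 9.22% and 45.3% of all genes tested. Atp6v0a2, another form of the large subunit, had an FPKM of 6.33, 2.92 and 3.01 in BSM and 1.34, 1.79 and 1.49 in BMDM (log2 fold change 0.94, limma adjusted p = 0.0334). Atp6v0e had 20.7, 46.4 and 24.5 in BMDM and 5.30, 5.37 and 4.64 in BSM (log2 fold change -2.28, limma adjusted p = 0.000855), and was the member of this list still called higher in BMDM after quantile normalization. Atp6v1g1, a V1 stator subunit, was called at -1.25 (limma adjusted p = 0.0133), but not after quantile normalization at -0.44. The others called higher in BMDM were Atp6v1f (-1.34, limma adjusted p = 0.0147) and the accessory subunit gene Atp6ap1 (-0.87, limma adjusted p = 0.0127). Not every V1 subunit was called on the listed scale. Atp6v1c1 lay at 3.98 to 6.74 in BMDM and 5.75 to 6.34 in BSM. After quantile normalization it was called higher in BSM, at 0.89 (limma adjusted p = 0.00962). Atp6v1d lay at 17.6 to 26.8 in BMDM and 7.66 to 21.5 in BSM and was called on neither scale.

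**Figure D3:**
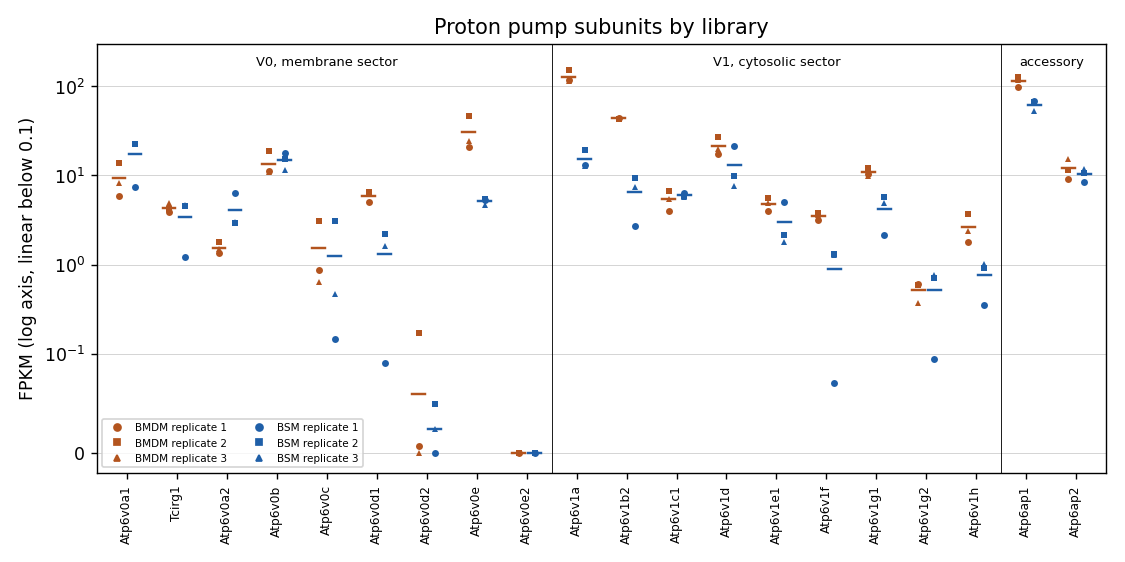
FPKM of 20 proton pump genes by library, on a log axis that is linear below 0.1, with bars for the mean of each cell type. Atp6v1a and Atp6v1b2 show wide gaps between BMDM and BSM, while Atp6v0a1 and Atp6v0b overlap.

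Ratios between genes within a library do not change when all values of the library are multiplied by 1 factor, as in upper quartile or same-sum scaling, although quantile normalization can change them. The pairs were chosen after the values were seen and carry no test. The ratio of Npc2 to Npc1 in FPKM was 2.25, 2.16 and 2.56 in BMDM and 0.599, 0.289 and 0.339 in BSM, so by FPKM the more abundant carrier transcript was Npc2 in all BMDM libraries and Npc1 in all BSM libraries. The ratio of Atp6v1a to Atp6v0a1 was 20.4, 11.0 and 13.9 in BMDM and 1.77, 0.854 and 0.572 in BSM. The ratio of Gm2a to Hexa was 2.14, 1.85 and 1.68 in BMDM and 0.248, 0.353 and 0.331 in BSM. These groups lay apart in every library. The ratio of Lamp2 to Lamp1 was 2.14, 1.23 and 1.64 in BMDM and 4.38, 3.74 and 4.44 in BSM. The ratio of Lgmn to Psap was at most 0.0211 in BMDM and 2.74 to 3.48 in BSM. In the ALEXA-Seq table the groups lay apart in the same direction for all 5 pairs, but the ratios had other sizes. There the ratio of Npc2 to Npc1 was 15.9 to 19.5 in BMDM and 2.43 to 6.65 in BSM, so Npc2 had the higher value in every BSM library too, and which carrier was the more abundant in BSM depended on the table. The ALEXA-Seq ratio of Lamp2 to Lamp1 was 0.259 to 0.423 in BMDM and 0.75 to 0.99 in BSM. Lamp1 thus had the higher value in every library there, and Lamp2 in every library by FPKM.

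**Figure D4:**
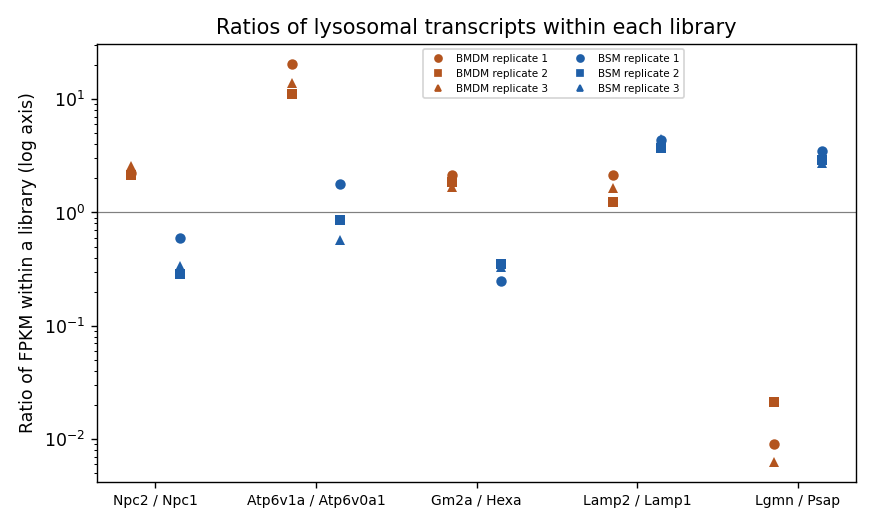
Ratios of FPKM between 5 pairs of lysosomal genes within each library, on a log axis, with 1 mark per library and a line at 1. The ratio of Npc2 to Npc1 lies above 1 in the BMDM libraries and below 1 in the BSM libraries, and the ratio of Lgmn to Psap lies at 2.74 to 3.48 in BSM and at most at 0.0211 in BMDM.

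The ALEXA-Seq values come from the same libraries and are no independent evidence. Of the 40 genes with a row, 33 were among the 6364 genes with the highest values that were compared. Of these 33, 5 (15.2%) were called higher in BSM against 10.9% of all genes, and 9 (27.3%) were called higher in BMDM against 37.1%. Of the 29 genes tested in both tables, Lgmn, Arsb, Tpp1 and Npc1 were called higher in BSM by both, and Atp6v1a, Atp6v1b2, Atp6v1h, Gm2a, Ids, Lamp1, Npc2 and Psap higher in BMDM by both. The ALEXA-Seq calls of Npc1 and Npc2 were each lost without 4 of the 6 libraries in turn (limma adjusted p = 0.0757 to 0.147 and 0.0626 to 0.0891), and those of Ids and Atp6v1h without 5 of them (0.0544 to 0.145 and 0.0527 to 0.157). The ALEXA-Seq call of Tpp1 was lost without BMDM replicate 3 (limma adjusted p = 0.0504). Atp6v0d1 was not called by ALEXA-Seq (log2 fold change -2.73, limma adjusted p = 0.055), but was called without BSM replicate 1, at -1.52 (limma adjusted p = 0.00168), and without BSM replicate 2. Its ALEXA-Seq value in BSM replicate 1 was 1.70, against 37.5 and 28.7 in BSM replicates 2 and 3 and 82.0 to 104 in BMDM. After quantile normalization, ALEXA-Seq called 14 of the 33 higher in BSM against 21.2% of all genes, and 7 higher in BMDM against 22.6%.

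BMDM replicate 2 had the highest sum of granulocyte markers and the highest sum of all FPKM, and it also held the highest of the 3 BMDM values for 25 of the 39 lysosomal genes, among them Lgmn, Psap, Gm2a, Npc1, Npc2, Lamp1 and Atp6v1a. The part of other marrow cells in these values was not tested. How many of all genes were highest in BMDM replicate 2 was not counted. The 25 of 39 can therefore not be read as a trait of the lysosomal genes. Without BMDM replicate 2, 4 lysosomal genes were called higher in BSM and 8 higher in BMDM, where 7.97% and 36.3% of all genes were called.

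The promoters of the lysosomal genes were searched for CACGTG, the core of the E-box bound by TFEB. The windows were those of RefSeq (GRCm38.p6), from 250 bases before to 50 bases after each start site, and 35 of the 41 genes had at least 1. CACGTG reads the same on both strands. It lay in the windows of 11 of the 35 genes (31.4%), against 8.09% of 27025 genes with a window. In the FPKM comparison, 6 of 26 lysosomal genes with a window held it (23.1%), against 12.5% of all 4163. The longer TCACGTG, which contains it, lay in the same 11 genes on either strand, against 4.29% of genes with a window. In the FPKM comparison, 23.1% of the lysosomal genes held TCACGTG, against 7.83% of all. The 11 genes were Arsa, Atp6v0b, Atp6v0d1, Atp6v1a, Cln3, Gaa, Glb1, Lamp1, Lgmn, Mcoln1 and Sgsh. The element was found in genes of each kind: in 1 of 3 genes with a window called higher in BSM, 3 of 8 called higher in BMDM and 2 of 15 tested and not called. A match is a description of the letters and does not show that a factor binds there.

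The stretches around the element are shown for Lgmn, Lamp1 and Atp6v1a, which were called, and for Atp6v0b, Cln3 and Mcoln1, which were not called or not tested, to set genes of unlike behaviour beside each other. All run 5′ to 3′ on the gene's strand and end before the start site, with CACGTG in capitals.
Lgmn: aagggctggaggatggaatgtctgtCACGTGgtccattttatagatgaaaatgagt
Lamp1: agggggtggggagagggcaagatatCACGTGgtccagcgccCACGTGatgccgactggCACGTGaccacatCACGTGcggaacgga
Atp6v1a: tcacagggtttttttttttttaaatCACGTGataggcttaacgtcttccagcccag
Atp6v0b: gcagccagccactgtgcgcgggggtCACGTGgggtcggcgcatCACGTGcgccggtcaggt
Cln3: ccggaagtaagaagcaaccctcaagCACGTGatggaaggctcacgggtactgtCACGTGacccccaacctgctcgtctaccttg
Mcoln1: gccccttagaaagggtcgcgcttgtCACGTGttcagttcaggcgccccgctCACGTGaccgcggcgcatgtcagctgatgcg
These stretches lie on GRCm38.p6 at chr12:102439111-102439166 (minus strand) for Lgmn, chr8:13159075-13159160 (plus) for Lamp1, chr16:44139360-44139415 (minus) for Atp6v1a, chr4:117887330-117887390 (minus) for Atp6v0b, chr7:126583327-126583410 (minus) for Cln3 and chr8:3500423-3500504 (plus) for Mcoln1. Lamp1 held the element 4 times, starting between 61 and 15 bases before the start site, and Atp6v0b, Cln3 and Mcoln1 held it 2 times each. Lgmn held it once, 49 bases before the start, and Atp6v1a once, 131 bases before the start. Lgmn and Lamp1 both carried the element and were called in opposite directions, and a part of the element in either call was not tested.

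Outside these 41 genes, 89 other lysosomal genes were looked up. Of these, 84 had an FPKM row and 45 were tested, with 6 (13.3%) called higher in BSM and 19 (42.2%) higher in BMDM, against 9.22% and 45.3% of all genes. Of 16 other hydrolases and cofactors tested, 3 (18.8%) were called higher in BSM and 8 (50.0%) higher in BMDM. Acp2, lysosomal acid phosphatase, was among those called higher in BSM, at 2.60 (limma adjusted p = 0.000285). Plbd1, Smpdl3a and Hpse, the last of which encodes heparanase, were called higher in BMDM, at -6.39, -4.24 and -2.98 (limma adjusted p = 3.07e-06, 1.11e-05 and 8.37e-05), and held after quantile normalization.

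Of 7 other lysosomal membrane proteins tested, 1 (14.3%) was called in each direction, against 9.22% of all genes higher in BSM and 45.3% higher in BMDM. Cln6 was the gene called higher in BMDM, at -1.49 (limma adjusted p = 0.00542). It was not called after quantile normalization, at -0.69 (limma adjusted p = 0.0866), nor by ALEXA-Seq (limma adjusted p = 0.169). Slc29a3, a nucleoside transporter, was called higher in BSM at 58.4, 53.9 and 46.8 FPKM against 14.1, 21.0 and 17.3 in BMDM (log2 fold change 1.56, limma adjusted p = 0.00121). The genes that sort enzymes to lysosomes were called higher in BMDM in 5 of 8 cases (62.5%, against 45.3% of all genes), and the other 3 were not called. Their median log2 fold change was -0.79, close to that of all genes at -0.81. M6pr, a mannose 6-phosphate receptor, and the retromer subunits Vps26a and Vps35 changed by -1.48, -1.23 and -1.20 (limma adjusted p = 0.00537, 0.00767 and 0.00892), and Ap1g1 and Vps29 by -0.71 and -0.85 (limma adjusted p = 0.0241 and 0.0214). After quantile normalization these 5 calls were lost, and the median log2 fold change of the 8 was -0.05. Of 4 genes tested from the TFEB family and its nutrient control, Rraga, a GTPase that recruits mTORC1 to the lysosome, was called higher in BMDM at -1.30 (limma adjusted p = 0.00455), but not after quantile normalization at -0.52, while Rptor, an mTORC1 subunit, was called higher in BSM at 1.35 (limma adjusted p = 0.00301) but was not among the genes compared by ALEXA-Seq. Mitf, a relative of Tfeb, stayed at 1.38 to 2.43 FPKM in all libraries.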

How the data were processed

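The 41 genes, their grouping by role and the other lysosomal and marker lists were chosen with earlier results of these data known. Per the submitters' processing notes, the tools were CASAVA 1.7.0, TopHat 1.3.1, Bowtie 0.12.7 and Cufflinks 1.0.3, with build mm9. The authors deposited 1 table of gene FPKM from Cufflinks and 1 table of gene values from ALEXA-Seq, a coverage-based signal whose exact unit is not given in the sources used here. Both hold 6 libraries, 3 per cell type from independently collected pools. Here values were taken as log2(value + 1) and compared with limma 3.58.1 (R 4.3.3), with a mean-variance trend and Benjamini-Hochberg adjustment over all 6364 genes of each comparison. For FPKM, genes had to reach 3 in at least 1 library, and for ALEXA-Seq the same number of genes with the highest values was used. The fit was tested on simulated data. All 41 genes were named. From the other lists, up to 3 genes per direction with the largest change in FPKM and a call by ALEXA-Seq were named, and the further ones named were chosen after their values were seen. Near-identical transcripts were found with blastn 2.17.0 in GENCODE M21 (at least 95% identity over at least 100 bases). The main fits did not pair libraries by replicate number. Same-numbered libraries correlated at -0.0195, -0.00836 and 0.134 after removing group means. With 3 libraries per cell type, these values cannot exclude a shared batch, and same-numbered libraries had the same sex. Alternatives were other scalings, minimums and pseudocounts, no trend, library quality weights, a 2-fold minimum change, a replicate block and leaving out each library. Exon array data were not used here, and the values of some genes in the other lists are not reported here.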

Additional observations from a re-analysis of the deposited data

How the results depend on the processing

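The count of calls changed with the scaling. Against 4 lysosomal genes higher in BSM on the listed scale, upper quartile scaling called 12, quantile normalization 11 and scaling to the same sum 17. Against 10 higher in BMDM, these settings called 5, 6 and 4, and the median log2 fold change reversed from -0.26 to 0.52, 0.55 and 0.94. Lgmn, Arsb, Tpp1 and Npc1 were called higher in BSM, and Atp6v1a, Atp6v1b2, Psap and Gm2a higher in BMDM, under all 3 settings. Lamp1 lost its call with the same sum (limma adjusted p = 0.221) and Atp6v0d1 with upper quartile scaling or the same sum (0.0943 and 0.222). In the order upper quartile, quantile and same sum, log2 fold changes that were negative became positive for Asah1 (0.81, 0.70 and 1.26), Atp6v0c (0.11, 0.60 and 0.33), Cln3 (0.14, 0.15 and 0.56), Fuca1 (0.56, 0.52 and 0.99) and Gusb (0.55, 0.58 and 0.97). The same held for Ids (0.064, 0.017 and 0.51), Lamp2 (0.49, 0.41 and 0.95), Laptm4a (0.45, 0.39 and 0.90), Laptm5 (0.83, 0.64 and 1.29), Man2b1 (0.75, 0.71 and 1.19) and Scarb2 (0.54, 0.60 and 0.93). With the same sum, Lipa (0.38) and Manba (0.19) also reversed. Library quality weights reversed Atp6v0c (0.60), Gusb (0.23), Hexa (-0.04) and Laptm5 (0.17), and gave calls to Atp6v0a1 (1.35, limma adjusted p = 0.000143), Lipa (-1.12, 0.000158), Fuca1 (-0.52, 0.0119) and Ctns (0.53, 0.0389). Of the 45 other lysosomal genes tested, quantile normalization and the same sum called 11 and 14 higher in BSM instead of 6, and upper quartile scaling, quantile normalization and the same sum called 7, 6 and 4 higher in BMDM instead of 19. In the same order, the share of all genes called higher in BSM rose from 9.22% to 19.3% and 24.9%. The share of all genes called higher in BMDM fell from 45.3% to 21.7%, 21.7% and 15.2%. For ALEXA-Seq, quantile normalization called 14 lysosomal genes higher in BSM instead of 5, where the share of all genes rose from 10.9% to 21.2%. Without a minimum, ALEXA-Seq called 3 lysosomal genes higher in BSM. There quantile normalization reversed Asah1 (0.66), Atp6v0c (0.24), Cln3 (0.32), Cln8 (0.59), Fuca1 (0.55), Ids (0.043), Lamp2 (0.59), Laptm4a (0.63) and Neu1 (0.29). The cause of these changes in single genes was not tested.

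Leaving out each library gave 2 to 5 lysosomal genes higher in BSM and 7 to 11 higher in BMDM, where the lowest count in BSM came without BMDM replicate 3. After quantile normalization, fits chosen after seeing the data, these ranges were 5 to 15, with 5 without BMDM replicate 1, BMDM replicate 3 or BSM replicate 2 and 7 without BSM replicate 3, and 4 to 7. For ALEXA-Seq they were 2 to 6, with 2 without BMDM replicate 3 and 3 without BMDM replicate 1 or BSM replicate 2 or 3, and 6 to 11. On the listed FPKM scale, leaving out each library called 461 to 738 of all 6364 genes higher in BSM. It called 2037 to 3194 of them higher in BMDM. For the quantile normalized and ALEXA-Seq fits, counts over all genes are not given here. Those ranges can therefore not be read as a trait of the lysosomal genes. Leaving out libraries turned small uncalled changes, with ranges of -0.11 to 0.036 for Asah1, -0.84 to 0.12 for Atp6v0c, -0.39 to 0.081 for Gusb, -0.20 to 0.25 for Hexa, -0.19 to 0.26 for Laptm5, -0.14 to 0.069 for Man2b1, -0.052 to 0.13 for Ppt1 and -0.44 to 0.045 for Scarb2. In ALEXA-Seq the ranges were -0.061 to 0.003 for Asah1, -0.39 to 0.004 for Fuca1, -0.21 to 0.37 for Gusb, -0.026 to 0.45 for Hexa, -0.25 to 0.009 for Lamp2, -0.14 to 0.017 for Laptm4a, -0.067 to 0.17 for Man2b1 and -0.20 to 0.36 for Scarb2.

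The main fits did not pair the libraries by replicate number. With the number as a block, 4 lysosomal genes were called higher in BSM and 10 higher in BMDM, and after quantile normalization 8 and 6. Counts over all genes with the block are not given here. In ALEXA-Seq the block gave 4 and 9, but partly for other genes: Npc1, Idua and Ids lost their calls (limma adjusted p = 0.0651, 0.0623 and 0.0513), and Atp6v0a1 and Atp6v0d1 gained them (0.0391 and 0.0457). The other alternatives, which were another pseudocount, lower minimums, no trend and a 2-fold minimum change, kept these counts within 1.5 times in the FPKM comparison. With 3 libraries per cell type and no read counts per gene, the precision of low values could not be assessed.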
